A study of Mus musculus with 4 samples.

Results

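The let-7 family and miR-98 were followed in resting mouse bone marrow–derived macrophages (BMDMs) by small RNA sequencing. The members were taken by name, as every mature let-7 5p product with a letter from a to i in the deposited table (let-7a, b, c, d, e, f, g and i) and miR-98-5p. They are 9 of the 1979 mature miRNAs listed. All 9 were among the 251 miRNAs called expressed here, which averaged 10 RPM or more across the libraries. RPM is reads per 1000000 counts of a library. The lowest member value in any library was 1223 RPM, so the level minimum played no part in which members were described.

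There were 4 libraries of 3 genotypes. WT A and WT B came from separate wild-type cultures, KO from mice homozygous for a mir-146a null allele, in which the hairpin had been deleted by gene targeting in embryonic stem cells, and 3′F from mice homozygous for an allele that exchanges part of the miR-146a stem, beyond the seed, between its strands. All mice were 6 to 7 months old and of a mixed 129/B6 background, with 3 named per genotype, and whether 1 library holds RNA from 1 mouse or several is not labelled. Marrow cells plated at 85000 per cm2 were grown in M-CSF (10 ng/ml, 8 to 9 days) and then kept for 16 h without LPS. KO and 3′F have 1 library each, so no difference from WT is checked by a replicate, and both are compared with the same pair of WT libraries. Because these are bulk samples, more of a miRNA per cell and more cells that make it cannot be told apart.

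let-7 miRNAs are among the oldest animal miRNAs. They rise as cells differentiate and, through a shared seed, the bases from position 2 to 8 that pair with target mRNAs, repress growth genes such as Hmga2, Lin28b and the Ras genes. LIN28 proteins bind let-7 precursors and block their maturation, while the related miR-98 carries the same seed. In macrophages let-7 members are known as regulators of cytokine mRNAs, including Il6. miR-146a, the miRNA altered here, acts downstream of NF-kB as a brake on Irak1 and Traf6 and shares no seed with let-7.

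The mature sequences below, from RefSeq (GRCm38.p6), show what the members share and where they part. Capitals mark the seed, and the rest decides how far reads of one member can be told from those of another.
mmu-let-7a-5p: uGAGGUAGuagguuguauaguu
mmu-let-7b-5p: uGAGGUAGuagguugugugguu
mmu-let-7c-5p: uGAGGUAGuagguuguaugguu
mmu-let-7d-5p: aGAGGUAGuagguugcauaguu
mmu-let-7e-5p: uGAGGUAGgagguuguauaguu
mmu-let-7f-5p: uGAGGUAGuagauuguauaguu
mmu-let-7g-5p: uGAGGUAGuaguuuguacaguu
mmu-let-7i-5p: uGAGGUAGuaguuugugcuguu
mmu-miR-98-5p: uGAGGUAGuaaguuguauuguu
mmu-let-7j: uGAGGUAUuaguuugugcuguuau

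All 9 members are 22 bases long and have the same seed. Counted from 1 at the 5′ end, and with the base of let-7a-5p first, let-7c-5p differs by A19G alone, let-7e-5p by U9G alone and let-7f-5p by G12A alone. let-7d-5p is the only member with another first base (U1A, beside U16C), and miR-98-5p carries G11A and A19U. Over the 36 pairs of members the number of differing bases ran from 1 to 6, and 4 pairs differed at 1 base. Every member had a fractional count in at least 1 library, as when reads are divided among lines. Values of near-identical members are uncertain to the extent of any such division. Of the 1979 listed miRNAs, 1679 have a RefSeq sequence, and 11 of those have the let-7 seed. The pair beyond the members, let-7k and miR-1961, had at most 15.25 and 22 counts in a library, so nearly all counts with this seed were those of the members.

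let-7j is not a member and differs from let-7i-5p over their shared 22 bases by G8U alone, which alters the seed. It had 2956 RPM (WT A), 3012 (WT B), 3122 (KO) and 2728 (3′F). That came to 3.95%, 3.93%, 4.27% and 3.73% of the let-7i-5p count of the same library. The number of mismatches allowed when reads were assigned is not given in the sources used here.

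Library totals ran from 11410940 to 19087640 counts. At this depth 3 counts equal between 0.157 and 0.263 RPM, and the 95% Wilson interval of the least abundant member value (let-7b-5p in WT A) was 1206 to 1239 RPM, which covers counting error only. The altered miRNA went with the labels. WT A and WT B held 6253 and 5485 RPM of miR-146a-5p, against 13.4 for KO and 6.64 for 3′F. All 4 of the myeloid markers looked at (miR-223-3p, both arms of miR-142a and miR-511-3p) were expressed. They summed to 3639 (WT A), 2822 (WT B), 3051 (KO) and 2848 (3′F) RPM. Singly they differed in direction. miR-142a-3p, at 1721, 1121, 1115 and 1071 RPM, was below both WT libraries in KO and 3′F. miR-223-3p and miR-511-3p were above both in KO and between them in 3′F, and miR-142a-5p lay between them in KO and 3′F. The 4 erythroid markers, 3 of them expressed and none at 0 in any library, summed to 170 and 159 RPM for the WT pair, 70.35 for KO and 80.3 for 3′F. None of the 5 stromal markers was expressed. They summed to 10.45 and 10.7 RPM for the WT pair, 7.51 for KO and 7.19 for 3′F, miR-143-3p stood at 4.74, 4.91, 2.10 and 2.22 RPM, and miR-145a-5p was at 0 in KO and 3′F. The 2 lymphoid markers summed to 248, 277, 305 and 245 RPM. Nearly all of it was miR-181a-5p, at 245 (WT A), 274 (WT B), 303 (KO) and 244 (3′F) RPM. The other, miR-150-5p, stood at 2.93, 2.80, 2.51 and 1.54 RPM, below both WT libraries in KO and 3′F. The single endothelial marker, miR-126a-3p, stood at 10.7, 9.82, 13.2 and 10.3 RPM. miR-181a-5p and miR-126a-3p were thus higher in KO than in the WT libraries, and miR-150-5p was lower. The part of other cell types in the let-7 values was not tested.

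Because let-7a, let-7c and let-7f each come from a pair of hairpins, and the table has a line per hairpin, their levels depend on how reads were counted. Only reads that extend beyond the mature sequence can tell the hairpins apart, as the next 4 bases of the RefSeq hairpins (capitals) show for let-7f-5p.
let-7f-1: ugagguaguagauuguauaguuGUGG
let-7f-2: ugagguaguagauuguauaguuUUAG

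The let-7f-2 line exceeded the let-7f-1 line by 6.51% (WT A), 6.46% (WT B), 5.45% (KO) and 6.34% (3′F). The let-7a-1 line exceeded the let-7a-2 line by 0.584% to 0.713%, and the let-7c-2 line the let-7c-1 line by 1.22% to 1.33%. Some counts of other miRNAs look like reads divided among lines rather than repeated on each. For instance, miR-9-5p has 3 lines of 69.33 counts each in WT A, which sum to 207.99, a whole number within rounding. Of the 119 values of miRNAs with 2 lines that were not whole, 56 became whole within 0.011 a line when the lines were summed, as did 10 of 18 with 3 lines, 9 of 11 with 4 and 4 of 23 with 8 to 12. With 2 lines a whole sum cannot decide this alone, since equal fractions on both lines can give a whole sum under either reading. For let-7a, let-7c and let-7f themselves the division cannot be read off, since near-identical members may also share reads. Levels of let-7a-5p, let-7c-5p and let-7f-5p are given as the sum of both lines, a choice made after the values were seen. The comparisons with WT use the higher line, and their log2 ratios are almost those of the sums (0.14 and 0.15 for let-7f-5p in KO).

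In resting BMDMs the family was led by let-7f-5p, let-7i-5p and let-7g-5p. let-7f-5p, its lines summed, was at 79122 RPM (WT A), 85883 (WT B), 91656 (KO) and 87207 (3′F), the third most abundant of all listed miRNAs in every library. let-7i-5p, which has a single hairpin, was at 74790.5, 76588, 73136 and 73049 RPM, rank 4 throughout. let-7g-5p was at 32042.5, 33356.5, 40718 and 35771 RPM, rank 5 or 6. These members made up between 79.7% and 84.3% of the family. Their WT levels were 82502.5 ± 4780, 75689 ± 1271 and 32700 ± 929 RPM (SD, n = 2 cultures), with no overlap between neighbours. By the higher let-7f line alone (40809, 44285, 47044 and 44943 RPM), let-7i-5p would stand first, so the order of the leading pair depends on how the lines are read.

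let-7a-5p, its lines summed, followed at 17119 RPM (WT A), 22968 (WT B), 26782 (KO) and 20073 (3′F). let-7d-5p, the member that starts with A, was at 6409, 8778, 9281 and 6925 RPM. For both of them the WT libraries lay far apart, with WT B 0.42 and 0.45 above WT A on the log2(RPM + 1) scale, the largest WT spreads in the family. let-7c-5p, its lines summed, was at 6552, 7588, 10036 and 7250.4 RPM. let-7d-5p and let-7c-5p were the only neighbours in the order whose WT ranges overlapped. WT means were 20043 ± 4136, 7593 ± 1676 and 7069.7 ± 733 RPM for let-7a-5p, let-7d-5p and let-7c-5p (SD, n = 2 cultures).

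The lowest members, each with 1 line, were let-7e-5p, miR-98-5p and let-7b-5p. let-7e-5p had 1945 (WT A), 1891 (WT B), 2861 (KO) and 2362 (3′F) RPM. Here both mutant libraries lay above both WT libraries, which differed by 0.04 on the log2(RPM + 1) scale. Under the TMM factors of edgeR and the size factors of DESeq2 the WT libraries lay farther apart, and both mutant libraries stayed above them. miR-98-5p had 1507, 1585, 1388 and 1302 RPM, with both mutant libraries below both WT libraries. let-7b-5p had 1223, 1483, 1855 and 1272 RPM, so that it ranked below miR-98-5p in WT A, WT B and 3′F and above it in KO. The WT means were 1918 ± 38.7 RPM for let-7e-5p, 1546 ± 54.9 for miR-98-5p and 1353 ± 184 for let-7b-5p, the last pair differing by about the SD of let-7b-5p. Levels of different members are compared here as counted. The ligation steps of small RNA library construction favour some sequences over others, so the order of the counts need not be the order in the cells.

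**Figure D1:**
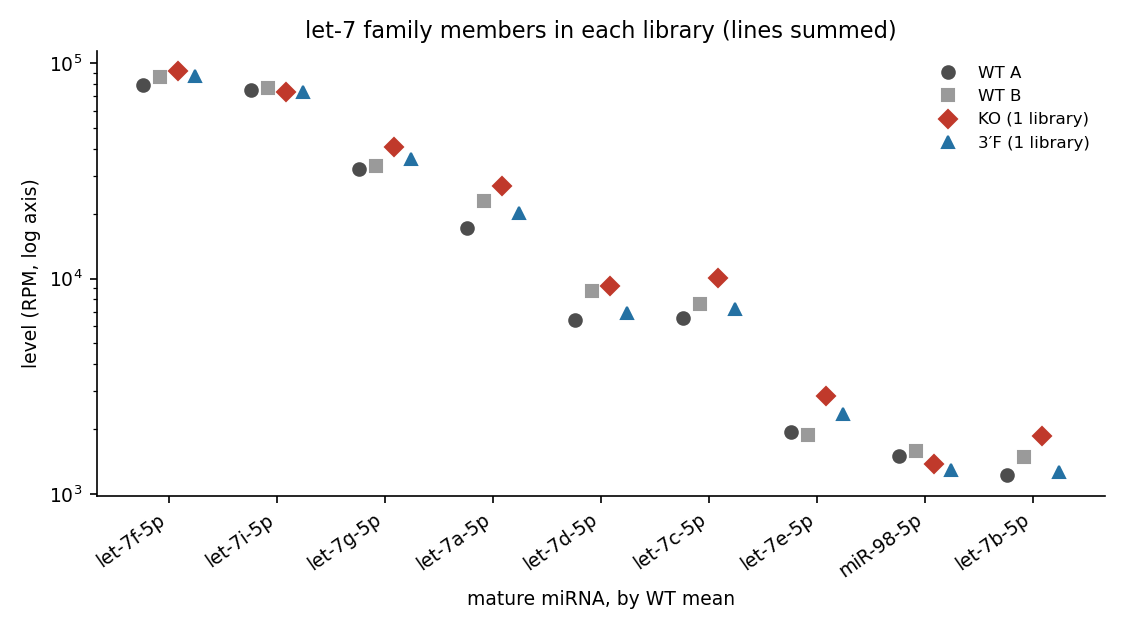
Level of each family member in RPM on a log axis, all lines of a miRNA summed, with members in order of their WT mean and 1 point per library (n = 2 WT cultures, 1 KO, 1 3′F). let-7i-5p sits between 73049 and 76588 RPM in all 4 libraries, and the KO point is the highest of its column for 7 of the 9 members.

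With all lines summed, the 9 members took 22.1% (WT A), 24.0% (WT B), 25.8% (KO) and 23.5% (3′F) of a library's counts. With 1 line per miRNA the shares were 17.1%, 18.3%, 19.5% and 17.9%. For scale, miR-21a-5p alone took between 33.4% and 37.9%. The summed family was 230414 ± 13725 RPM in WT (SD, n = 2 cultures). The KO sum was 1.17 and 1.07 times the sums of WT A and WT B. Its log2 ratio to the WT mean was 0.16, against 0.12 between the WT libraries. By RPM the 3′F sum lay between the WT libraries, with a log2 ratio of 0.03. With 1 line per miRNA that ratio was 0.10 under the TMM factors of edgeR and 0.09 under the size factors of DESeq2. Under these factors the 3′F sum lay above both WT libraries, which were closer together than by RPM. let-7f-5p held 35.8%, 35.8%, 35.6% and 37.1% of the family in the order WT A, WT B, KO and 3′F, and let-7i-5p 33.9%, 31.9%, 28.4% and 31.1%. Without let-7i-5p the sum of the other 8 was 145919 RPM (WT A), 163531 (WT B), 184577 (KO) and 162163 (3′F). The KO value was then 1.26 and 1.13 times the WT values, a log2 ratio of 0.25. By RPM the 3′F value again lay between the WT libraries, and under the TMM or DESeq2 factors (1 line per miRNA) above both.

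**Figure D2:**
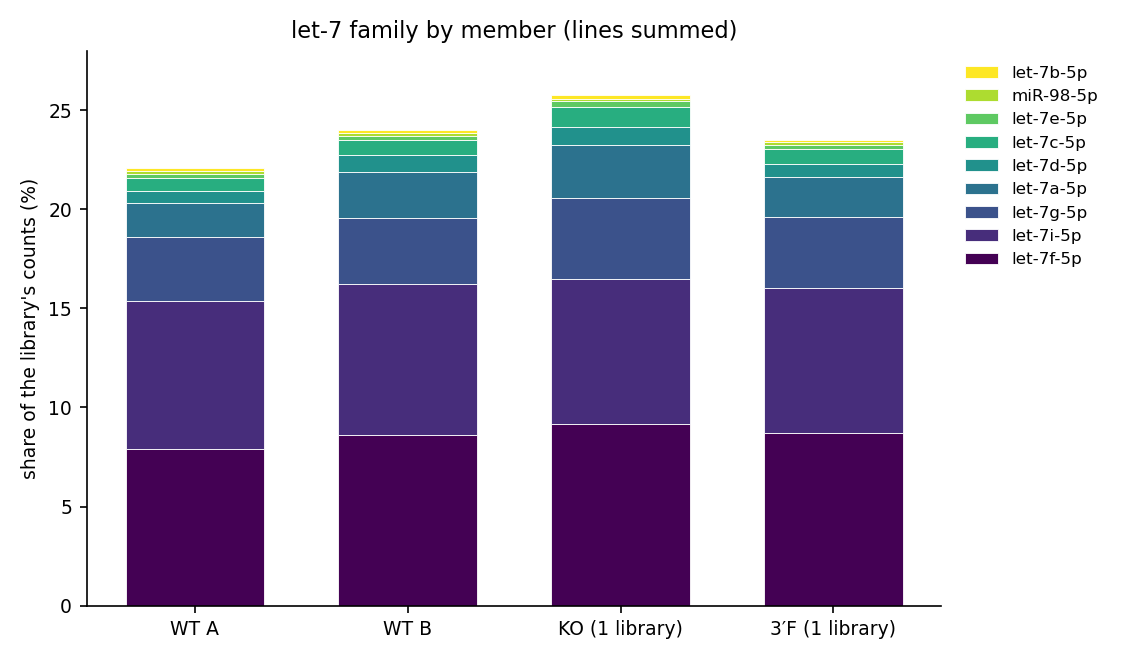
Share of each library's counts, in percent, held by the 9 members, all lines summed and stacked by member for WT A, WT B, KO and 3′F. The stacks reach 22.1%, 24.0%, 25.8% and 23.5%, and the blocks are tallest in KO for every member except let-7i-5p and miR-98-5p.

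The comparison of KO with WT asks which miRNAs differ in macrophages without miR-146a. In KO, 7 of the 9 members (let-7a-5p to let-7g-5p) were higher than in both WT libraries and 2 (let-7i-5p and miR-98-5p) were lower. Of all 251 expressed miRNAs, 37.8% were higher than both WT libraries in KO and 39.4% were lower. The largest log2 ratios to the WT mean were those of let-7e-5p (0.58), let-7c-5p (0.50), let-7b-5p (0.46) and let-7a-5p (0.42), ahead of let-7g-5p (0.32), let-7d-5p (0.29) and let-7f-5p (0.14). let-7i-5p was at -0.05 and miR-98-5p at -0.16. The median over the members was 0.32 and over all expressed miRNAs 0.00. The 7 members stayed above both WT libraries under 4 other scalings, and miR-98-5p stayed below them. let-7i-5p lay between the WT libraries under the TMM factors of edgeR and the size factors of DESeq2, with a log2 ratio still below 0, so its place below both of them depends on the scaling.

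No member reached 2-fold from both WT libraries in KO, a size that 3.59% of the expressed miRNAs reached. let-7e-5p came nearest, at 1.47 times WT A and 1.51 times WT B. let-7a-5p showed how much the WT library matters, since its KO level was 1.56 times that of WT A and 1.17 times that of WT B. By RPM its log2 ratio of 0.42 was no larger than the difference between the WT libraries themselves. The same held for let-7d-5p (0.29 against 0.45), whereas for the other 7 members KO lay farther from the WT mean than the WT libraries lay from each other. This split depends on the scaling. Under the TMM factors of edgeR and the size factors of DESeq2 the let-7a-5p ratio (0.46 and 0.47) exceeded the WT difference. The let-7d-5p ratio did so narrowly under TMM (0.33) and not under DESeq2 (0.34). For let-7i-5p (-0.02 and -0.005) the WT difference was the larger under both. edgeR's quasi-likelihood test over all expressed miRNAs, in which the lone KO library is assumed to vary like the WT libraries, called 2 members, let-7e-5p (adjusted p = 0.0111) and let-7c-5p (adjusted p = 0.0283), both higher. It called 13.9% of the expressed miRNAs, 17 of them higher and 18 lower in KO. let-7b-5p followed with an edgeR adjusted p of 0.0622 and let-7a-5p with 0.114. DESeq2 called the same 2 members, with adjusted p-values of 0.0142 and 0.0336, among 9.56% of the expressed miRNAs. With the lines summed, edgeR called let-7a-5p as well (adjusted p = 0.0262), so 3 members, beside 13.3% of 255 expressed miRNAs, and DESeq2 again called 2.

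**Figure D3:**
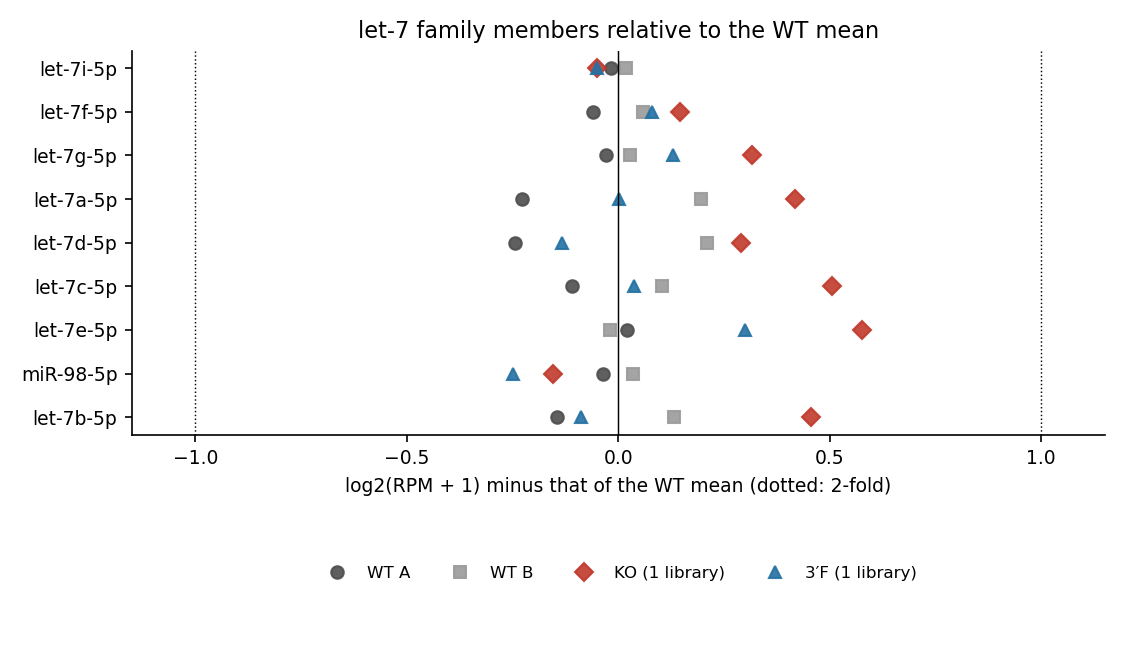
Difference of each library from the WT mean on the log2(RPM + 1) scale for the 9 members, by the higher line and in order of its WT level, with dotted lines at 2-fold. KO points reach 0.58 (let-7e-5p) without crossing a dotted line, while the 3′F points of let-7a-5p, let-7b-5p, let-7c-5p and let-7d-5p lie between the WT points.

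The comparison of 3′F with WT addresses the miR-146a allele that keeps its seed and has an exchanged 3′ sequence. In 3′F, 3 members (let-7e-5p, let-7f-5p and let-7g-5p) were higher than both WT libraries, 2 (let-7i-5p and miR-98-5p) were lower and 4 lay between them. Of the expressed miRNAs, 22.7% were higher and 44.2% were lower. The log2 ratios ran from -0.25 for miR-98-5p to 0.30 for let-7e-5p, with a median of 0.00 over the members and -0.08 over all expressed miRNAs. let-7e-5p was 1.21 times WT A and 1.25 times WT B, and miR-98-5p was 0.863 and 0.821 times. let-7i-5p moved to between the WT libraries, and let-7c-5p to above them, under the TMM factors of edgeR and the size factors of DESeq2. With WT B left out, 7 members were above the remaining WT library, and with WT A left out 6 were below it, so the counts for 3′F depend on which culture they are set against. No member reached 2-fold, against 0.797% of the expressed miRNAs. edgeR called no member in 3′F and 1.2% of the expressed miRNAs, and 1 member, let-7e-5p, had an unadjusted p under 0.05 (adjusted p = 0.574). DESeq2 called none of the members and 0.398% of the expressed miRNAs. Whether the KO and 3′F libraries differ from each other was not tested.

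Ratios between members within a library do not depend on how libraries are scaled. They still depend on any division of reads among near-identical members, and KO and 3′F are single libraries. Per count of let-7i-5p, let-7c-5p (lines summed) had 0.0876 counts (WT A), 0.0991 (WT B), 0.137 (KO) and 0.0993 (3′F). For let-7e-5p the ratio was 0.0260, 0.0247, 0.0391 and 0.0323, so that both mutant libraries were above WT. let-7a-5p (lines summed) stood at 0.229, 0.2999, 0.366 and 0.275, where only KO lay outside the WT range. The ratio of miR-98-5p to let-7i-5p was 0.0202 and 0.0207 in the WT libraries and lower in KO (0.0190) and 3′F (0.0178). let-7b-5p over miR-98-5p gave 0.811, 0.936, 1.34 and 0.977. Relative to let-7i-5p, KO had the highest value of the 4 libraries for the other 7 let-7 members and not for miR-98-5p. That KO exceeded WT for these 7 follows from the levels, since they were above both WT libraries and let-7i-5p was below both. It is thus not a separate result. The share of all expressed miRNAs that were higher per count of let-7i-5p was not computed.

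In the GENCODE vM21 annotation of GRCm38 the 9 members come from 12 hairpins at 8 loci, and let-7a, let-7c and let-7f each have a pair of them. Chromosome 13 holds Mirlet7a-1, Mirlet7f-1 and Mirlet7d within 2261 bp of the minus strand (chr13:48536012-48538272), in exons of the lincRNA gene 6720427I07Rik. Mirlet7c-2 and Mirlet7b lie within 801 bp of chromosome 15 (chr15:85706603-85707403), in exons of Lncppara. Mirlet7f-2 and Mir98 lie within 976 bp of an intronic stretch of the protein-coding gene Huwe1 on chromosome X (chrX:151912346-151913321). Mirlet7g is intronic in Wdr82 (chr9:106178840-106178927), and Mirlet7i overlaps an exon of the transcribed pseudogene D630033A02Rik (chr10:122985640-122985724, minus strand). The remaining 3 hairpins sit with miRNAs of other families. Mirlet7e lies between Mir99b and Mir125a within 686 bp of Spaca6 on chromosome 17 (chr17:17830194-17830879), Mirlet7c-1 between Mir99a and Mir125b-2 within 47404 bp of Mir99ahg on chromosome 16 (chr16:77598936-77646339), and Mirlet7a-2 between Mir100 and Mir125b-1 within 50578 bp of 3110039I08Rik on chromosome 9 (chr9:41531425-41582002).

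Products named for a single hairpin allow some loci to be followed separately. miR-99a, miR-99b and miR-100, known to repress Mtor, and miR-125a and miR-125b, known from blood stem cells, are the neighbours of let-7 hairpins. The table lists 11 of their products, of which 8 were expressed, among them miR-125b-5p, which hairpins on chromosomes 9 and 16 both give. All 8 were higher than both WT libraries in KO, where 37.8% of the expressed miRNAs were, and 7 in 3′F, where 22.7% were, with 1 between. Under the scaling that leaves miR-21a-5p out, 1 of the 7, miR-125b-2-3p, moved to between the WT libraries. The log2 ratios of the 8 had a median of 0.55 for KO and 0.20 for 3′F. edgeR called 4 of them in KO (13.9% of the expressed miRNAs) and DESeq2 3 (9.56%). In 3′F edgeR and DESeq2 called 0, and 0 had an unadjusted p under 0.05 by edgeR. Products of one hairpin or cluster are not independent of each other.

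The chromosome 17 cluster gave the most products that could be followed, 6. let-7e-3p, the other arm of the let-7e hairpin, had 22.1 RPM (WT A), 22.4 (WT B), 41.55 (KO) and 29.1 (3′F). miR-125a-5p had 1409, 1578, 2379 and 1739.7 RPM, and miR-99b-5p had 11142, 9185, 14446 and 11757 RPM. All 6 products of the cluster were above both WT libraries in KO, with log2 ratios from 0.43 to 0.87, and all 6 were above both in 3′F, with ratios from 0.15 to 0.37. Of the expressed miRNAs 37.8% and 22.7% were above both. Both counts held under each of the 4 other scalings. In KO edgeR called let-7e-5p, let-7e-3p (adjusted p = 0.0049), miR-125a-5p (adjusted p = 0.00277) and miR-99b-5p (adjusted p = 0.0498), beside 13.9% of the expressed miRNAs. DESeq2 called 3 of the 6 and not miR-99b-5p (adjusted p = 0.0828). In 3′F edgeR and DESeq2 called none of the 6, and 1 of them, let-7e-5p, had an unadjusted p under 0.05 by edgeR. Of the markers of other cells, the erythroid sum was lower in KO and 3′F. miR-181a-5p and miR-126a-3p were above both WT libraries in KO like these products, with log2 ratios of 0.22 and 0.33. The other lymphoid marker, miR-150-5p, was below both WT libraries in KO and 3′F. The part of other cells was not tested.

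The clusters on chromosomes 16 and 9 are alike in layout. miR-99a-5p and miR-100-5p, which mark them, have the same seed (capitals) and differ by 1 base, U16A with the base of miR-99a-5p first, so that their reads can be told apart at that base alone.
mmu-miR-99a-5p: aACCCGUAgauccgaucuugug
mmu-miR-100-5p: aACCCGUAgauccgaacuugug

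miR-100-5p had 45.4 RPM (WT A), 41.8 (WT B), 98.1 (KO) and 52.5 (3′F), and edgeR called it in KO (adjusted p = 0.000605). miR-99a-5p was far more abundant, with 9083, 7840.4, 10170.0 and 8671 RPM in the same order. The ratio of miR-99a-5p to miR-100-5p was 200, 188, 104 and 165. miR-125b-2-3p and miR-125b-1-3p, 3p products of hairpins on chromosomes 16 and 9, gave the same order of libraries, with ratios of 19.7, 19.4, 8.29 and 15.4. miR-125b-1-3p rests on few counts, 82 (WT A), 45 (WT B), 280 (KO) and 103 (3′F), and was under the level minimum. Against the balance within each pair in WT, the chromosome 9 product was thus higher in both mutant libraries, more so in KO. let-7a-2-3p, the let-7 product of that locus, had only 4.5, 1.5, 6 and 4.5 counts, too few to follow. let-7c-1-3p on chromosome 16 had 62.6, 81.8, 110.7 and 73.0 RPM, above both WT libraries in KO and between them in 3′F.

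**Figure D4:**
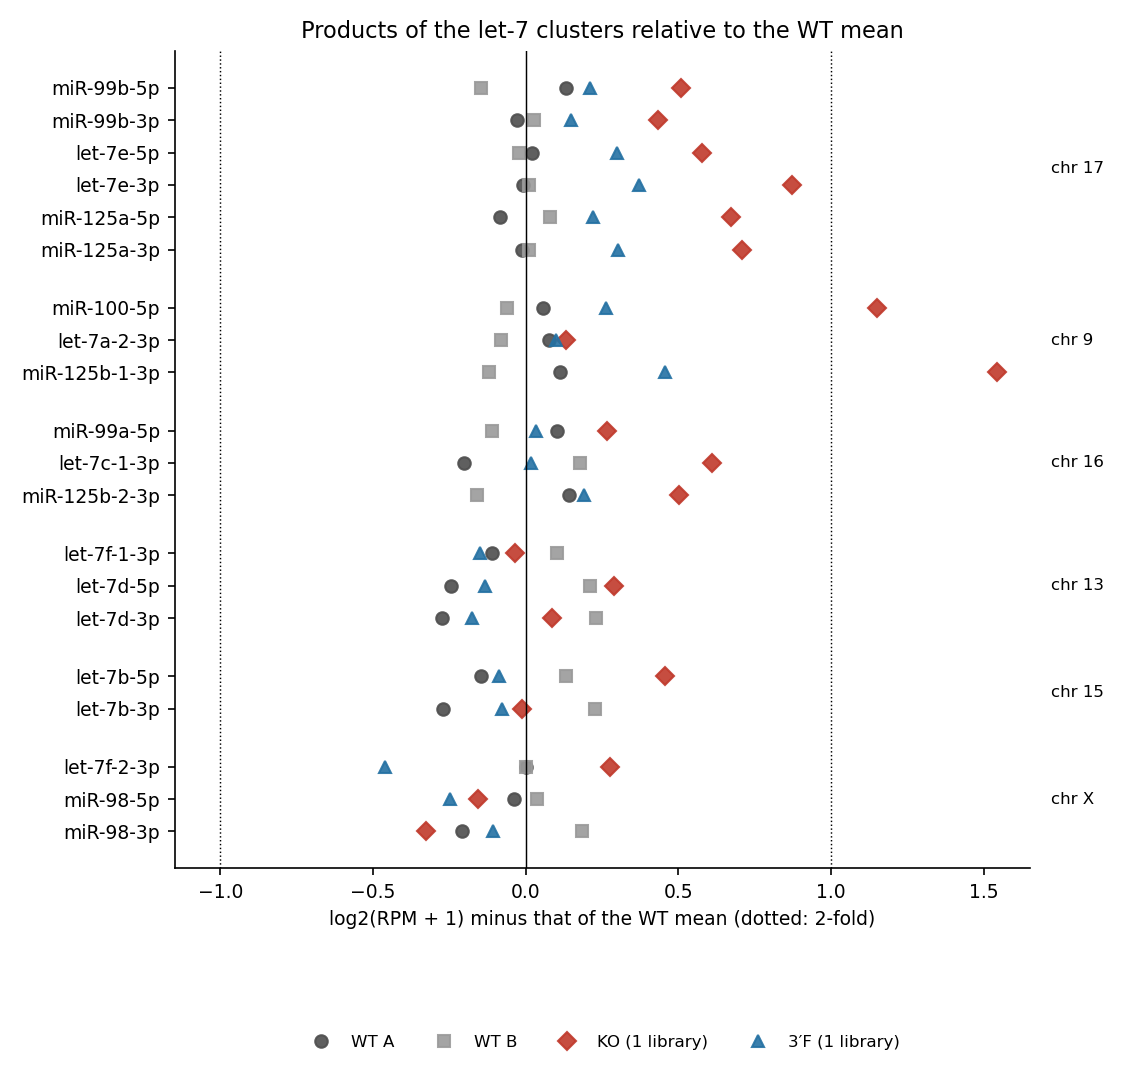
Difference of each library from the WT mean on the log2(RPM + 1) scale for products of the clustered let-7 hairpins, grouped by chromosome, leaving out mature sequences that more than 1 hairpin gives. All 6 chromosome 17 products have KO and 3′F to the right of both WT points, while miR-98-5p has both to the left. miR-125b-1-3p, miR-98-3p, let-7f-2-3p and let-7a-2-3p rest on few counts.

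The loci without such neighbours gave no common direction. On chromosome 13, let-7d-5p was above both WT libraries in KO, whereas let-7d-3p (687.5, 976, 882 and 736 RPM) and let-7f-1-3p (26.1, 30.45, 27.6 and 25.4 RPM) were not. On chromosome X, let-7f-2-3p, on 142.33 to 292.67 counts a library, had 12.5 RPM in both WT libraries, 15.3 in KO and 8.79 in 3′F. As its WT values nearly coincide, almost any value falls outside them. It was above both WT libraries in KO and below both in 3′F. Its neighbour miR-98-5p was below both in either mutant library. miR-98-3p had 8.84, 11.9, 8.07 and 9.57 RPM, on 136 to 155 counts a library. On chromosome 15, let-7b-5p was above both WT libraries in KO and let-7b-3p between them, and both lay between them in 3′F. By RPM let-7g-5p was above both WT libraries in KO and 3′F, and let-7i-5p was below both.

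The arm opposite the let-7 strand, cut from the same hairpin and mostly degraded, was listed on 12 lines, 8 of them expressed. Of these 8, 5 were above both WT libraries in KO and 0 below, and 1 was above and 4 were below in 3′F, beside 37.8% above and 39.4% below in KO and 22.7% above and 44.2% below in 3′F over all expressed miRNAs. Set against WT A alone, 8 were above in KO and 4 in 3′F, and set against WT B alone 3 were below in KO and 7 in 3′F, a comparison chosen after the values were seen. let-7a-1-3p and let-7c-2-3p have the same RefSeq sequence, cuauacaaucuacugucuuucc, and nearly the same counts (1754 and 1755 in WT A), so these 2 of the 8 are 1 measurement under a pair of names. Where 1 hairpin gives both arms, the 3p share of the hairpin's counts differed widely between members. let-7d-3p held 9.69% (WT A), 10.0% (WT B), 8.68% (KO) and 9.60% (3′F). For let-7e the share was 1.12% and 1.17% in WT and 1.43% in KO, and for let-7b it was 1.18%, 1.40%, 0.941% and 1.30%. let-7i-3p held only 0.0101% to 0.0133% and let-7g-3p 0.00121% to 0.00274%. In KO the let-7d share (interval 8.56% to 8.81%) was below, and the let-7e share (interval 1.34% to 1.53%) above, the counting intervals of both WT libraries. For let-7b, let-7g, let-7i and miR-98 the KO interval overlapped that of WT A. These intervals cover counting error only, not the spread between cultures, and KO is a single library. How often other hairpins differ in this way was not counted.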

How the data were processed

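Small RNA of 4 BMDM libraries (2 WT, 1 KO, 1 3′F) had been made with the NEBNext kit and selected for short inserts. The submitters' processing notes name cutadapt 1.8.3. The aligner, counter, mismatch allowance, miRNA release and genome build are not given in the sources used here. The authors deposited an estimated count per line, often fractional, as when reads fitting several lines are divided among them. They also deposited RPM values, each count over the total of the 2129 lines of a library. The total is led by miR-21a-5p, so RPM values move with that miRNA.

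The line with the highest summed count stood for each of 1979 mature miRNAs in ratios and calls, which takes about a hairpin's part of a miRNA with several lines, and levels were also taken with all lines summed. By the single line, 251 averaged 10 RPM or more (expressed). Ratios are differences of log2(RPM + 1) from the WT mean, a scale on which changes of low miRNAs look smaller. Calls needed 2-fold or more from both WT libraries, and each value was also placed above, below or between them. With 1 library per mutant genotype no test was the main result. edgeR 4.0.16 (quasi-likelihood) and DESeq2 1.42.0 (Wald) on rounded counts of expressed miRNAs, with Benjamini-Hochberg adjustment and the spread estimated from the WT pair, were alternatives. Simulated libraries with a similar spread held changes of 4-fold. There the 2-fold rule and edgeR each called 100% of 44 changed miRNAs, and of 216 unchanged ones 0 and 3 (KO against WT). In the real libraries no member reached 2-fold, so these rates do not bear on changes as small as those of the members. The simulated KO library was given the same spread as the WT libraries.

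Other alternatives were 4 scalings, all lines of a miRNA summed (added after seeing the data), a pseudocount of 0.1 RPM, the lower line of each miRNA, each WT library left out, folds of 1.5 and 3, and sums with let-7j and let-7k or without let-7i-5p. Wilson intervals (95%) cover counting error only. Named miRNAs are the members, their other arms, miRNAs with their seed and let-7j, hairpin neighbours, label checks, cell type markers, and the 3 expressed miRNAs with ratios nearest to those of the family sum. The members and lists were chosen with earlier results of these data known. Sequences are from RefSeq (GRCm38.p6) and loci from GENCODE vM21. Python 3.11.15, pandas 2.3.3 and R 4.3.3 were used. The mRNA, protein and qRT-PCR data were not analysed here.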

Additional observations from a re-analysis of the deposited data

How the results depend on the processing

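The counts of members above both WT libraries in KO, and the sign of all 9 log2 ratios in KO, held under each alternative computed for them. In 3′F the sign held for 4 of the 9. Under edgeR's TMM and under DESeq2's size factors 1 member, not 2, was below both WT libraries in KO and in 3′F. With 1 line per miRNA the family sum had log2 ratios of 0.14 (KO) and 0.02 (3′F). The 3′F ratio moved to 0.10 under TMM, where the 3′F sum lay above both WT libraries and not between them. The KO ratio moved to 0.26 without let-7i-5p. With 1 WT library left out at a time, members below WT in 3′F numbered between 2 and 6, and members above WT between 3 and 7. edgeR and DESeq2 each called 2 members in KO where the 2-fold rule called 0, and edgeR on summed lines called 3. The family's share with the lower line of each miRNA was 16.8%, 18.05%, 19.2% and 17.65% in WT A, WT B, KO and 3′F. With let-7j and let-7k added it was 17.4%, 18.6%, 19.8% and 18.2%, and with all lines of a miRNA summed 22.1%, 24.0%, 25.8% and 23.5%. Summing put let-7f-5p above let-7i-5p and changed no count of members above, below or at 2-fold from both WT libraries. In the deposited headings KO and 3′F carry the letter A, as WT A does, which the paper gives as a culture replicate identifier. Whether the letter marks cultures handled together is not said. With 1 library each for KO and 3′F, no paired analysis was possible. The summing of lines and the alternatives given for the 3p products and the hairpin neighbours were chosen after seeing the data. Counts were too low to follow let-7a-2-3p, let-7g-3p, let-7k and miR-1961. For the members the spread between the WT cultures, up to 0.45 on the log2(RPM + 1) scale, exceeds counting error.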

Other observations

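The 3 expressed miRNAs whose ratios (KO to WT, 3′F to WT and WT B to WT A, over 4 libraries) lay nearest to those of the family sum (1 line per miRNA) were miR-338-5p, miR-106b-3p and miR-532-3p. Their distances on the log2 scale were 0.0903, 0.0925 and 0.114. Unlike the sum, miR-106b-3p and miR-532-3p lay between the WT libraries in KO. miR-338-5p had 92.1 (WT A), 103.1 (WT B), 103.5 (KO) and 101.95 (3′F) RPM.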
